A study of Mus musculus with 12 samples.

Results

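Transcripts for synthesis, transport or breakdown of the neurotransmitters GABA and glutamate were measured in the arcuate nucleus (ARC) of the hypothalamus. They comprised 8 genes, chosen by symbol for their role in GABA or glutamate signaling: the GABA-synthesizing enzymes *Gad1* and *Gad2*, the vesicular GABA transporter *Slc32a1*, the GABA uptake carrier *Slc6a11*, the GABA-degrading enzyme *Abat*, and the vesicular glutamate transporters *Slc17a6*, *Slc17a7* and *Slc17a8*. All 8 were found, once each, among the 38283 genes of the deposited table, and 6 reached the mean of 1 FPKM (fragment counts scaled to transcript length and to the mapped fragments of the library) that was required for testing. The tissue came from freely fed male mice aged 8 weeks on a C57BL/6 strain, either wild type (WT, n = 5) or homozygous for the R299Q change in the γ2 subunit of AMP-activated protein kinase (Homo, n = 7). The knockin sits in the endogenous *Prkag2* gene and is therefore carried by every cell rather than by ARC neurons alone. The ARC was cut out of frozen sections by laser capture, its RNA was amplified, and 1 library was sequenced per numbered sample. Whether each sample came from a single mouse is not stated in the labels, so p-values measure the spread between these samples. The R299Q change is a base substitution, so gene-level values cannot check the genotype labels.

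GABA is made from glutamate by glutamate decarboxylase, of which *Gad1* and *Gad2* encode the 2 forms, GAD67 and GAD65. *Slc32a1* loads GABA into synaptic vesicles, whereas glutamate is loaded by the products of *Slc17a6* (VGLUT2), *Slc17a7* (VGLUT1) or *Slc17a8* (VGLUT3), so that these carriers mark the transmitter a neuron releases. In the ARC, AGRP neurons are GABAergic, other neuron types release GABA or glutamate, and VGLUT2 is the usual glutamate carrier of the hypothalamus.

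Members of a family can only be compared where their reads can be told apart. The coding sequences of *Gad1* (1779 bases without the stop codon, GENCODE M21 on GRCm38) and *Gad2* (1755 bases) were identical at 67.1% of aligned bases, and no window of 50 bases was common to both. Windows and runs were compared as exact matches within coding sequence, and untranslated parts of the transcripts were not compared. The longest common run of the 2 genes was 17 bases, shown here in capitals with 15 flanking bases on each side. It holds the codons of the lysine that binds the cofactor pyridoxal phosphate, and it lies within coding exons at chr2:70593439-70593485 for *Gad1* and chr2:22673951-22673997 for *Gad2*, both on the plus strand.
Gad1: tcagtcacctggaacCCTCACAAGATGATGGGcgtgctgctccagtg
Gad2: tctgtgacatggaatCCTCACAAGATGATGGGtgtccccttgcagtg

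The vesicular glutamate transporters were likewise distinct, with 72.0% of aligned coding bases identical between *Slc17a6* and *Slc17a7*, 71.6% between *Slc17a6* and *Slc17a8*, and 0 common windows of 50 bases for any pair. The longest run that *Slc17a6* had in common with *Slc17a7* was 21 bases (chr7:51625447-51625497 and chr7:45168881-45168931, both plus strand). With *Slc17a8* it was 25 bases (chr7:51625403-51625457, plus strand, and chr10:89606653-89606707, minus strand). These are coding exons, and the runs are given in capitals because a low value of *Slc17a7* or *Slc17a8* beside a high value of *Slc17a6* is only informative if reads are not passed between them.
Slc17a6, run in common with Slc17a7: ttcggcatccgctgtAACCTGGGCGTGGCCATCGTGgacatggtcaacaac
Slc17a7: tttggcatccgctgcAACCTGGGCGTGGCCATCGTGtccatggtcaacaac
Slc17a6, run in common with Slc17a8: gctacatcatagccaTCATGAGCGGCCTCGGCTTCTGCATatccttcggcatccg
Slc17a8: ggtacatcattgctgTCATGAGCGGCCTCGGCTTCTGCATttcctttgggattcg

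Across all 12 libraries, the chosen GABA genes lay above the vesicular glutamate transporters. *Slc17a6*, the highest of these transporters, ranked 5143 by mean FPKM among the 14017 genes tested. By mean FPKM over the libraries, the order was *Slc6a11* (105), *Gad1* (98.3), *Abat* (82.1), *Gad2* (72.6), *Slc32a1* (39.8), *Slc17a6* (12.1), *Slc17a8* (0.298) and *Slc17a7* (0.108). FPKM is scaled to transcript length, but the RNA was amplified and evenness of coverage along transcripts was not tested. Levels and ratios between genes assume even coverage. *Slc6a11* and *Gad1* did not differ beyond their spread, *Slc6a11* being the higher in 7 of 12 libraries. *Abat* and *Gad2* also changed places, *Abat* being the higher in 8 of 12 libraries (5 of 5 WT and 3 of 7 Homo). *Gad1* exceeded *Abat* in 9 of 12 (2 of 5 WT and 7 of 7 Homo). From *Slc32a1* downward the order was firmer: *Gad2* exceeded *Slc32a1* in 11 of 12 libraries, and *Slc32a1* exceeded *Slc17a6*, as *Slc17a6* exceeded both other glutamate carriers, in 12 of 12. *Slc17a8* and *Slc17a7*, the lowest, could not be ordered (10 of 12, with overlapping ranges).

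**Figure D1:**
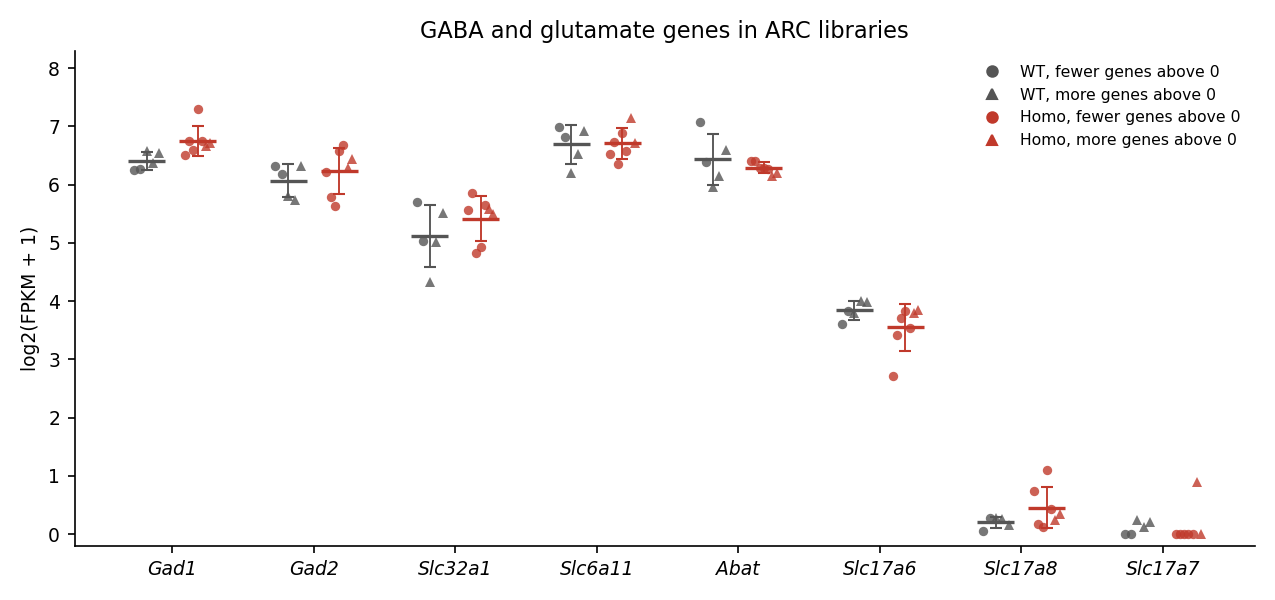
Level of each gene in each ARC library as log2(FPKM + 1), WT in grey and Homo in red. Circles are libraries with fewer genes above 0 and triangles those with more, horizontal lines are means and error bars are SD (n = 5 WT, n = 7 Homo; none is drawn for Slc17a7, which is listed at 0 in some libraries). The 5 GABA genes lie above Slc17a6 in every library, and Slc17a8 and Slc17a7 lie near 0.

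*Slc17a6* was the only vesicular glutamate transporter above 2 FPKM in any library. WT 1 to WT 5 gave 11.2, 13.2, 12.9, 15.001 and 14.8 FPKM in turn, and Homo 1 to Homo 7 gave 5.57, 9.70, 12.05, 13.3, 10.6, 12.96 and 13.4 FPKM. *Slc17a8* had a value above 0 in 12 of 12 libraries, 0.0425 to 0.211 FPKM for WT against 0.0882 to 1.14 FPKM for Homo, where Homo 4 and Homo 1 were the highest. *Slc17a7*, the carrier of cortical and hippocampal projection neurons, had a value above 0 in only 4 of 12 libraries, at 0.187 (WT 3), 0.0905 (WT 4), 0.154 (WT 5) and 0.868 FPKM (Homo 6), and is listed at 0 in the other 8. All 4 belong to the 5 libraries with more genes above 0, and a listed 0 can be a failed estimate, so the 2 genotypes were not compared for it.

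The label of the tissue was checked against markers of neighboring and distant glutamatergic neurons. *Nr5a1*, which defines the ventromedial nucleus next to the ARC, was at most 0.315 FPKM, and *Fezf1*, of the same nucleus, was at most 0.647 FPKM. *Adcyap1* and *Bdnf*, also expressed there, averaged 1.54 and 0.542 FPKM. Of 4 markers of cortical glutamatergic neurons, *Emx1* is listed at 0 in every library, and *Neurod6*, *Neurod2* and *Tbr1* did not pass 0.314 FPKM. The ARC neuropeptide genes *Agrp* and *Npy*, both of the GABAergic AGRP neurons, averaged 385 and 1281 FPKM. The other ARC neuron markers averaged from 29.2 (*Kiss1*) to 1367 FPKM (*Sst*), with *Pomc* at 787 FPKM. Among transcription factors of forebrain GABAergic neurons, *Dlx1* averaged 10.8, *Dlx5* 7.70, *Dlx2* 6.82 and *Dlx6* 5.26 FPKM. Transcripts of GABAergic neurons were thus present in all libraries, while defining markers of the ventromedial nucleus and the cortex were at or near 0. These markers do not assess glutamatergic neurons of the ARC itself. Hormone genes of the pituitary were present in some libraries: growth hormone (*Gh*) was at 61.5 FPKM in WT 3, 64.5 in WT 5 and 54.5 in Homo 7 and at most 0.139 FPKM elsewhere, and *Cga*, the common hormone subunit, was at 50.2 FPKM in WT 3 and 9.37 in Homo 4. WT 3 also had the lowest mean log2 value of the ARC neuron markers, 6.59, where the other 11 libraries had 7.30 to 8.29.

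**Figure D2:**
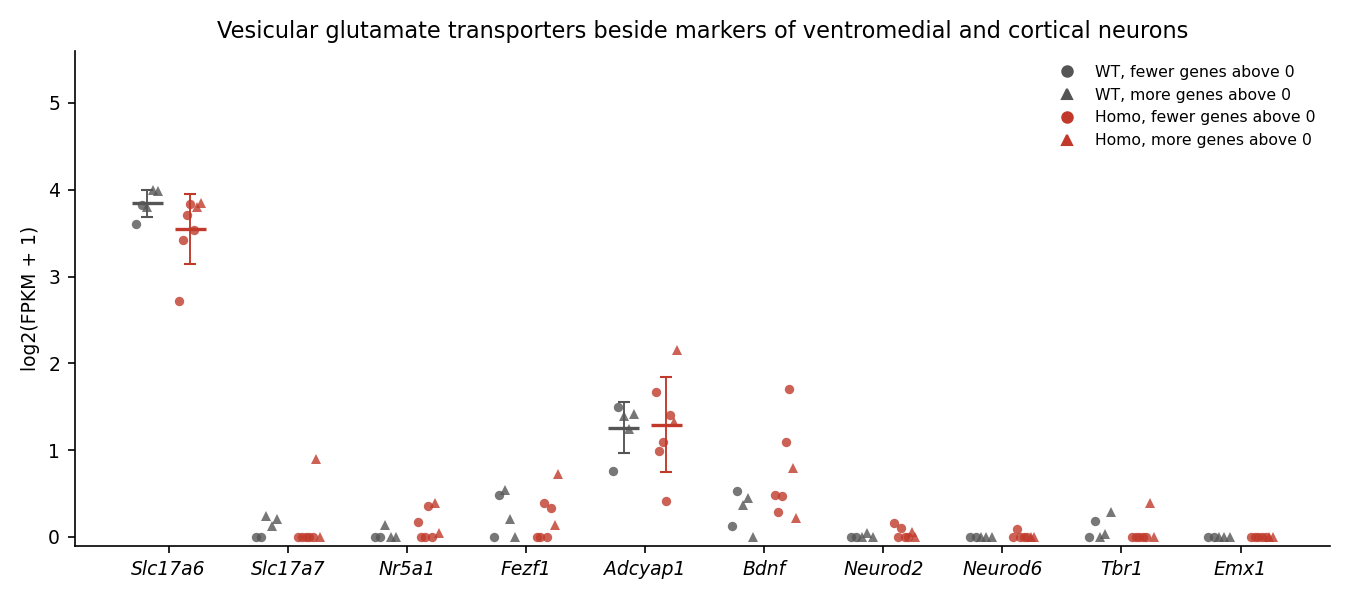
Slc17a6 and Slc17a7 beside 4 markers of ventromedial neurons (Nr5a1, Fezf1, Adcyap1, Bdnf) and 4 of cortical glutamatergic neurons (Neurod2, Neurod6, Tbr1, Emx1), as log2(FPKM + 1) per library. Lines and bars are mean and SD where no library is at 0 (n = 5 WT, n = 7 Homo); Slc17a6 is the highest gene shown in every library.

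Genotypes were then compared for each gene. Values were taken as log2(FPKM + 1), and limma, which moderates the variance of each gene by that of all genes, was fitted over 14017 genes with Benjamini-Hochberg adjustment. No member of the 6 (0 of 6) reached an adjusted p below 0.05, against 1 of all genes (0.00713%). At an unadjusted p under 0.05 there was 1 of 6, *Gad1*, against 5.55% of all genes (3.05% in the same direction, higher in Homo). No gene of the 6 had all Homo libraries above all WT libraries (0.128% of all genes) or below them (0.0927%). The median log2 fold change of the 6 was 0.09, beside -0.0062 over all genes tested, with 4 of 6 higher in Homo (49.3% of all genes).

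*Gad1* (ENSMUSG00000070880, chromosome 2 from 70553072 to 70602014, plus strand) had 75.3, 76.1, 94.1, 81.6 and 92.5 FPKM in the WT libraries, in order of their number. The Homo libraries, likewise in order, had 89.7, 107, 95.5, 157, 107, 100.5 and 104 FPKM. All but Homo 1 exceeded the highest WT library, and Homo 1 lay below WT 3 and WT 5, so the groups overlapped by that library alone. WT averaged 83.9 ± 8.93 FPKM (SD, n = 5), and Homo, at 109 ± 22.1 FPKM (SD, n = 7), had a mean 29.4% higher. On the log2 scale the difference was 0.35 (standard error 0.16, 95% interval 0.013 to 0.69, limma adjusted p = 0.899), so that *Gad1* did not pass the test over all genes. An exact two-sided permutation test of this gene over the 792 ways of assigning genotypes gave p = 0.0101, the only such p below 0.05 among the 6 (5.35% of all genes tested, 3.01% being higher in Homo).

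The unadjusted limma p of *Gad1* was close to 0.05 (0.0431), and the count of 1 gene under that threshold became 0 when any one of WT 1, WT 2, WT 4, Homo 2, Homo 4, Homo 5, Homo 6 or Homo 7 was left out. Homo 4 was far above the other Homo libraries for *Gad1*. Without it the log2 fold change was 0.26 (exact permutation p = 0.0130). The libraries fell into 7 with fewer genes above 0 (2 WT, 5 Homo; 15742 to 16467 genes) and 5 with more (3 WT, 2 Homo; 18141 to 18635 genes), a split that no label names. For *Gad1* the former set gave a log2 difference of 0.52 and the latter 0.20, and rearranging genotypes inside each set gave an exact permutation p = 0.0238, where 0.0048 is the smallest possible. Pan-neuronal markers had a mean log2 value of 6.01 ± 0.26 in WT and 6.06 ± 0.22 in Homo (SD). Scaled to these markers, *Gad1* had a log2 fold change of 0.31 and an exact permutation p = 0.164.

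Several cell type markers also had different means in the 2 genotypes, none with an adjusted p below 0.05 in limma. Of 11 ARC neuron markers (none at 0), 9 had a higher mean in Homo (49.3% of all genes). *Agrp* and *Npy* did so at an unadjusted p below 0.05 in limma (3.05% of all genes). The summed level of the 11 was 2071 to 6714 FPKM among WT against 4834 to 6854 FPKM among Homo libraries. WT 3 had the lowest mean log2 value of the list, 6.59. In the set of 7 libraries that mean was 8.15 in WT 1 and 8.14 in WT 2, against 7.64 to 8.29 among Homo libraries, so the list was not higher in Homo there. *Agrp* also differed between the library sets (limma adjusted p = 0.0293 for the set). The log2 fold change of *Agrp* was 0.60 over all libraries and 0.30 within sets (exact permutation p = 0.0909 and 0.0714), and that of *Npy* was 0.60 and 0.41 (exact permutation p = 0.0354 and 0.0857).

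Of the 4 *Dlx* genes of GABAergic neurons, 3 had a lower mean in Homo and 1 a higher one. Their sums were 19.3 to 42.4 FPKM among WT and 15.5 to 40.0 FPKM among Homo libraries, with none at 0. *Dlx5* had a log2 fold change of -0.60 (limma adjusted p = 0.899, exact permutation p = 0.0884), and of -0.82 within library sets (exact permutation p = 0.0048, the smallest possible). How many of all genes reach that p within sets was not computed. *Dlx1* was at 0.59 (limma adjusted p = 0.903, exact permutation p = 0.101). *Dlx2* and *Dlx6* were at -0.14 and -0.27 (limma adjusted p = 0.985 and 0.968). Within library sets *Dlx1* was at 0.61, *Dlx2* at -0.23 and *Dlx6* at 0.12. Among glial lists, 5 of 5 microglial markers and 6 of 6 oligodendrocyte markers had a higher mean in Homo (median log2 fold change 0.37 for both), and 4 of 5 tanycyte markers a lower one (median -0.22). An unadjusted p below 0.05 in limma was reached by 1 microglial marker (higher in Homo), 0 oligodendrocyte markers and 1 tanycyte marker (lower). Over all genes tested it was reached by 3.05% higher and 2.5% lower in Homo. Summed levels of microglial markers were 20.5 to 37.7 FPKM for WT against 28.3 to 49.2 for Homo, those of oligodendrocyte markers 88.8 to 550.0 against 153 to 403, and those of tanycyte markers 7.96 to 31.3 against 10.04 to 24.1; *Mog* alone of these was at 0 in a library. The part of these cells in the *Gad1* values was not tested. In bulk tissue, more cells of a type and more RNA per cell cannot be told apart.

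**Figure D3:**
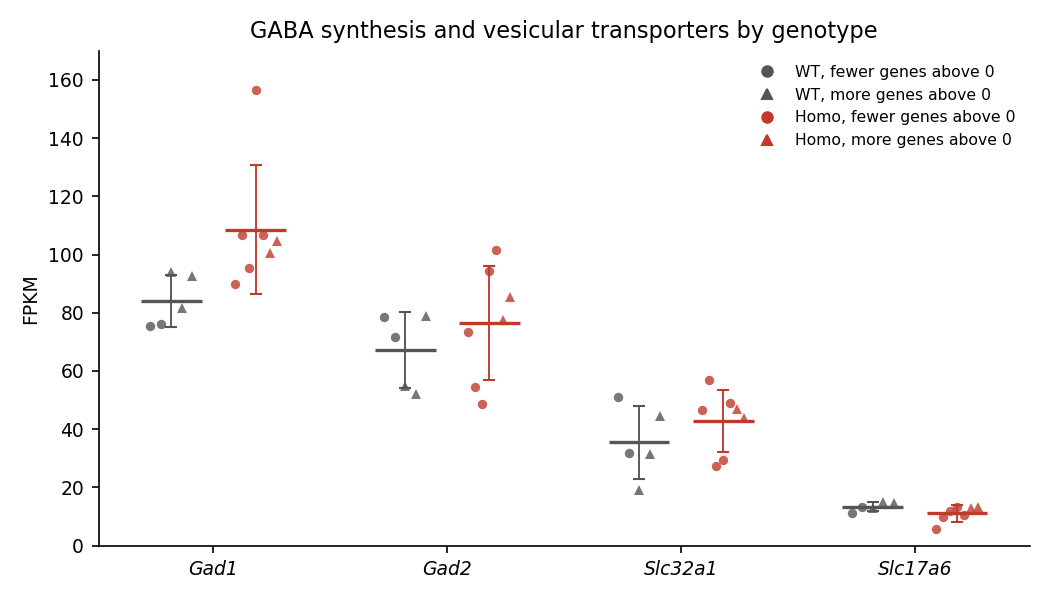
FPKM of Gad1, Gad2, Slc32a1 and Slc17a6 in each library, WT in grey and Homo in red, with circles and triangles for libraries with fewer and more genes above 0, and mean and SD (n = 5 WT, n = 7 Homo). For Gad1, 6 of 7 Homo libraries lie above the highest WT library, and the other genes overlap more.

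*Gad2* (ENSMUSG00000026787, chromosome 2 from 22622205 to 22693874, plus strand), the form tied to synaptic vesicles, did not show the same separation. Its values ran 78.7, 71.5, 54.7, 52.1 and 79.0 FPKM over WT 1 to WT 5, then 73.3, 54.5, 48.6, 94.4, 101, 77.5 and 85.5 FPKM over Homo 1 to Homo 7. Homo 4, Homo 5 and Homo 7 lay above all WT libraries and Homo 3 lay below them. WT averaged 67.2 ± 12.98 and Homo 76.5 ± 19.6 FPKM, with a log2 fold change of 0.16 (standard error 0.21, 95% interval -0.28 to 0.61, limma adjusted p = 0.939; exact permutation p = 0.438). That value was 0.078 without WT 4, 0.095 without WT 3, 0.11 without Homo 4, 0.089 without Homo 5 and 0.26 without Homo 3. The intervals of *Gad1* and *Gad2* overlap. The ratio of *Gad1* to *Gad2* within a library ranged from 0.958 to 1.72 among WT and from 1.05 to 1.96 among Homo libraries, and on the log2(FPKM + 1) scale it differed by 0.19 between genotypes, less than its SD of 0.36 in each group.

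*Slc32a1* (ENSMUSG00000037771, chromosome 2 from 158610767 to 158615748, plus strand) varied most among the 5 GABA genes, with a 3.00-fold range. WT libraries 1 to 5 had 50.9, 31.9, 19.0, 31.3 and 44.5 FPKM, and Homo libraries 1 to 7 had 46.4, 57.0, 27.3, 29.5, 49.1, 46.9 and 44.0 FPKM. WT 3 was the lowest library and Homo 2 the highest, and the remaining 10 were intermixed. Homo exceeded WT by 0.30 on the log2 scale (standard error 0.25, 95% interval -0.24 to 0.84, limma adjusted p = 0.919; exact permutation p = 0.314), and by 0.10 without WT 3, the library with low ARC neuron markers and with pituitary transcripts, whose part in the difference was not tested. The span of an antisense gene, *Gm14205*, overlaps an exon of *Slc32a1*, though its own exons were not compared. *Gm14205* averaged 6.11 ± 4.83 FPKM among WT libraries against 5.69 ± 2.15 FPKM among Homo libraries. Whether strand was used in counting is not given in the sources used here, so reads of the pair may not be fully separated. The span of the antisense *Gad1os* likewise overlaps an exon of *Gad1*. *Gad1os* averaged 0.788 FPKM and was above 0 in 5 of 12 libraries. It averaged 0.0267 ± 0.0596 FPKM among WT and 1.33 ± 2.35 FPKM among Homo libraries (SD), with a maximum of 6.48 FPKM. Its part in the *Gad1* values was not tested.

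The vesicular GABA carrier exceeded the main glutamate carrier in every library. The ratio of *Slc32a1* to *Slc17a6* in FPKM was 4.55, 2.42, 1.47, 2.09 and 3.01 over the WT libraries in order, and 8.34, 5.88, 2.26, 2.22, 4.64, 3.61 and 3.28 over the Homo libraries. It was above 1 in 12 of 12 libraries, and 3 of 7 Homo libraries exceeded the highest WT library. On the log2(FPKM + 1) scale the mean was 1.27 ± 0.59 in WT and 1.86 ± 0.66 in Homo (SD), a difference of 0.59 that is about as large as the spread in each group. Taken apart, the set of 7 gave 0.27 and the set of 5 gave 0.69, and within sets the difference was 0.46. With 1 library left out it ranged from 0.40 (without WT 3) to 0.79 (without WT 1), and was 0.42 without Homo 1.

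*Slc17a6* (ENSMUSG00000030500, chromosome 7 from 51622006 to 51671119, plus strand) had the lower mean in Homo, at 11.1 ± 2.81 FPKM against 13.4 ± 1.55 FPKM for WT. The log2 difference of -0.29 did not pass the test (standard error 0.22, 95% interval -0.75 to 0.17, limma adjusted p = 0.915; exact permutation p = 0.143). Homo 1, Homo 2 and Homo 5 were below all WT libraries and WT 4 and WT 5 above all Homo libraries. Homo 1 was the lowest library, and without it the log2 fold change was -0.15.

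**Figure D4:**
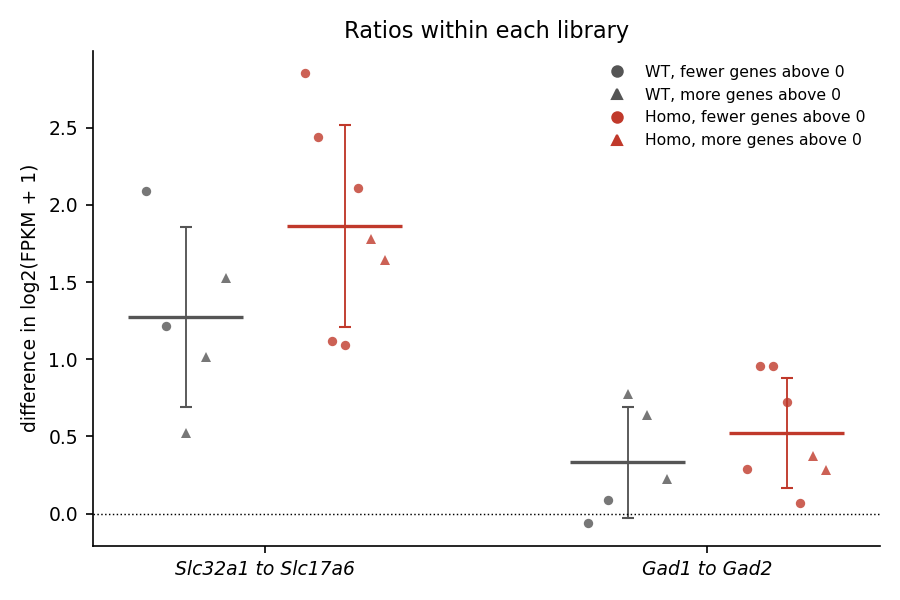
Difference in log2(FPKM + 1) between Slc32a1 and Slc17a6, and between Gad1 and Gad2, within each library, with mean and SD (n = 5 WT, n = 7 Homo) and circles and triangles for libraries with fewer and more genes above 0. Every library lies above 0 for Slc32a1 to Slc17a6, and the genotypes overlap for both pairs.

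Genes for clearing GABA did not differ between genotypes beyond their spread. *Slc6a11* (ENSMUSG00000030307, chromosome 6 from 114131241 to 114249952, plus strand), which encodes GAT-3, an uptake carrier found mainly on astrocytes, had 126, 112, 72.5, 90.9 and 120 FPKM over WT libraries 1 to 5. Over Homo libraries 1 to 7 it had 91.6, 105, 80.7, 117, 94.5, 141 and 105 FPKM, and 2 of 7 were above the WT median. The means of 104 ± 22.3 and 105 ± 19.7 FPKM differed by less than the spread in each group, with a log2 fold change of 0.017 (standard error 0.18, 95% interval -0.37 to 0.41, limma adjusted p = 0.995). Astrocyte markers did not separate the genotypes either. Of the 7, all tested, 5 had a higher mean in Homo (49.3% of all genes) and 0 reached an unadjusted p below 0.05 in limma (5.55% of all genes). Their summed level was 115 to 175 FPKM for WT against 120 to 184 FPKM for Homo, with none at 0 in any library.

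*Abat* (ENSMUSG00000057880, chromosome 16 from 8513429 to 8621568, plus strand), which encodes the mitochondrial GABA transaminase, had 134, 82.8, 61.0, 69.9 and 95.9 FPKM over WT libraries 1 to 5, and lay between 69.9 and 84.1 FPKM in all Homo libraries, with a median of 77.2. WT libraries therefore surrounded the Homo libraries, 2 of 5 above all of them and 2 of 5 below. The SD was 28.6 FPKM for WT against 5.21 FPKM for Homo. Homo minus WT came to -0.15 on the log2 scale (standard error 0.18, 95% interval -0.54 to 0.25, limma adjusted p = 0.937; exact permutation p = 0.465). Without WT 1 the log2 fold change was 0.016, and without WT 3 it was -0.27.

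The 2 library sets gave different values for several genes. The set of 7 libraries, with fewer genes detected, had log2 fold changes of -0.069 for *Gad2*, -0.0027 for *Slc32a1*, -0.29 for *Slc6a11*, -0.40 for *Abat* and -0.27 for *Slc17a6*. In the other 5 it was 0.41, 0.59, 0.39, -0.056 and -0.10, in the same order. For none of the 6 genes did the difference between sets have an unadjusted p under 0.05 in limma, the smallest being 0.0787 for *Slc6a11*. Of the 5 genes in that list, *Abat* and *Slc17a6* alone kept one sign in both sets.

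Other genes of GABA and glutamate handling were read from the same fit. Of the 20 such genes reported here, 16 were tested and 0 passed adjustment. A higher mean in Homo was found for 10 of the 16 (49.3% of all genes) and a lower one for 6. At an unadjusted p below 0.05 there were 0 among those 16 in either direction, against 3.05% of all genes higher and 2.5% lower in Homo. Their median log2 fold change was 0.055.

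Glutamate uptake carriers of astrocytes had differences of either sign. *Slc1a2* (GLT-1) averaged 206 ± 72.0 FPKM for WT against 145 ± 57.1 FPKM for Homo (log2 fold change -0.51, limma adjusted p = 0.899, exact permutation p = 0.0909). The exact permutation p was 0.0143 when genotypes were rearranged inside each library set, a test with no share over all genes beside it. *Slc1a3* (GLAST) was at 66.5 ± 19.4 and 84.6 ± 24.3 FPKM (log2 fold change 0.34, limma adjusted p = 0.915). The neuronal carrier *Slc1a1* was at 16.0 ± 6.15 and 16.4 ± 3.71 FPKM. None of the 4 carriers tested, *Slc1a6* included, passed an unadjusted p of 0.05 in limma.

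Enzymes that make or recycle glutamate spanned a wide range of levels, from a mean of 5.99 FPKM for *Gls2* to 176 FPKM for *Glud1*. *Glud1*, encoding glutamate dehydrogenase, averaged 153 ± 38.4 FPKM for WT against 192 ± 47.8 FPKM for Homo (log2 fold change 0.33, limma adjusted p = 0.915). *Glul*, the glutamine synthetase of astrocytes, averaged 129 ± 19.6 and 134 ± 21.5 FPKM. Of the 5 enzymes reported here, including *Gls2*, *Got1* and *Got2*, 3 had a higher and 2 a lower mean in Homo, and 0 reached an unadjusted p below 0.05. Glutamine carriers (*Slc38a1*, *Slc38a2*, *Slc38a3*) and mitochondrial carriers (*Slc25a12*, *Slc25a18*, *Slc25a22*) had log2 fold changes between -0.091 and 0.31. The GABA carriers *Slc6a12* and *Slc6a13*, the glutamine carrier *Slc38a5* and the mitochondrial carrier *Slc25a13* averaged under 1 FPKM and were not tested.

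**Figure D5:**
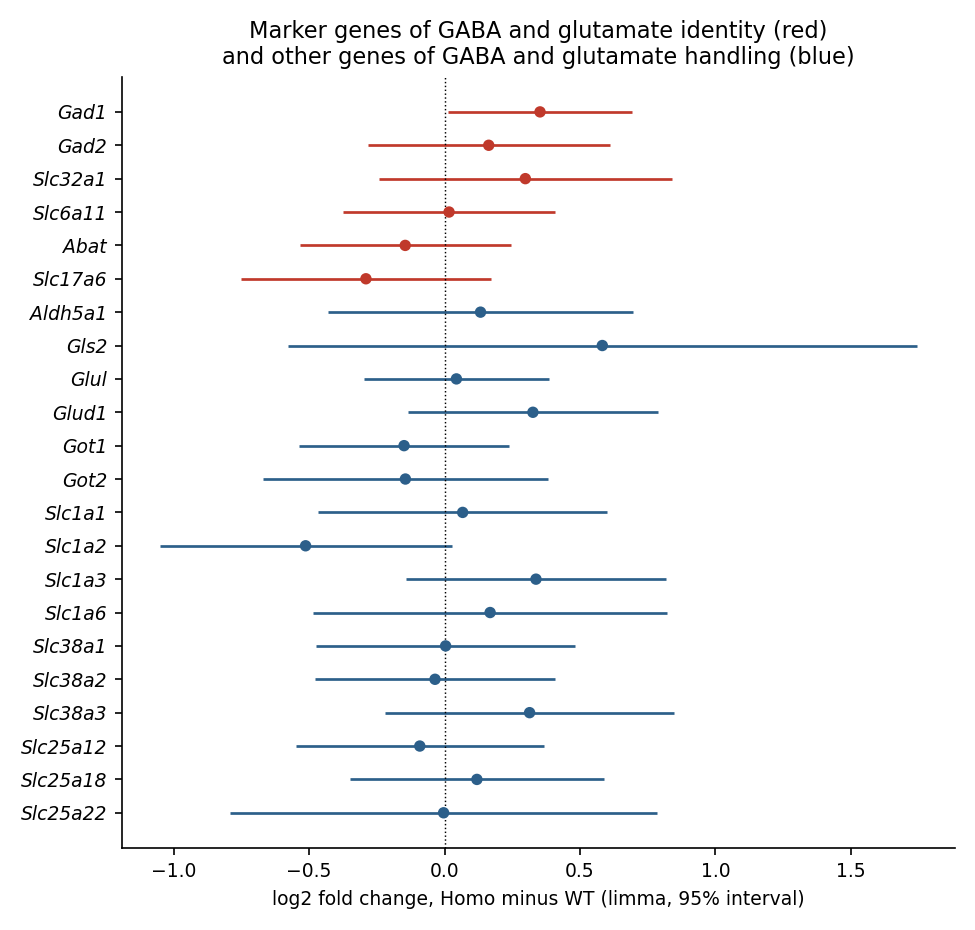
Log2 fold change from WT to Homo with its 95% interval in limma for the 6 chosen GABA and glutamate genes that were tested (red) and 16 other genes of GABA and glutamate handling (blue), 12 libraries. Among the genes shown, the interval of Gad1 alone (0.013 to 0.69) lies on one side of 0, and none passed an adjusted p of 0.05.

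The genes were also followed across the 12 libraries irrespective of genotype, in 6 pairs. No pair reached an adjusted p below 0.05. *Slc6a11* and *Abat* had Pearson's r = 0.50 and Spearman's rho = 0.45 (permutation p = 0.0963 and 0.140, adjusted 0.324 and 0.360). *Slc32a1* and *Slc17a6* had r = -0.39 and rho = -0.49 (permutation p = 0.206 and 0.110, adjusted 0.324 and 0.360). *Gad1* and *Gad2* had r = 0.37 and rho = 0.34, and *Gad2* and *Slc32a1* had r = 0.43 and rho = 0.30, with permutation p between 0.163 and 0.342. *Gad1* and *Slc32a1* had r = -0.050 and rho = 0.049 (permutation p = 0.875 and 0.886). *Slc17a6* and *Slc17a7* had r = 0.25 and rho = 0.42 (permutation p = 0.270 and 0.180), with *Slc17a7* at 0 in 8 libraries. Without the 2 libraries farthest from the median on the first gene, r was 0.64 for *Slc6a11* and *Abat*, -0.46 for *Slc32a1* and *Slc17a6*, 0.29 for *Gad1* and *Gad2*, 0.25 for *Gad2* and *Slc32a1*, 0.47 for *Gad1* and *Slc32a1* and 0.20 for *Slc17a6* and *Slc17a7*. In the set of 7 libraries alone, r was 0.61, -0.53, 0.30, 0.13 and -0.23 for the first 5 of these pairs. In the 7 Homo libraries alone r turned to -0.53 for *Slc6a11* and *Abat*, and was -0.38, 0.46, 0.13, -0.38 and 0.27 for the other pairs in that order. The 5 WT libraries are too few for a value of their own.

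Over all genes tested, those whose log2 values lay closest to *Slc32a1* across the 12 libraries were *Eef1a1* (Pearson's r = 0.95), *Lrrc49* (0.94), *1110051M20Rik* (0.91), *Papd7* (0.90) and *Gpi1* (0.89). For *Slc17a6* they were *SCARNA17* (0.92), *AC146596.1* (0.91), *Zfp579* (0.89), *Scamp4* (0.89) and *Mrps36* (0.88). These are the highest values over all genes tested, from libraries that also differ in the number of genes above 0, and are given as a description.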

How the data were processed

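RNA from laser-captured ARC was amplified and sequenced as 12 libraries, and the authors deposited 1 table of FPKM values per gene and library. The submitters' processing notes name TopHat2 2.0.8, Cufflinks 2.2.1 and GRCm38; the annotation release, strand setting and scaling between libraries are not given in the sources used here. Read counts were not used, so depth is known only through the number of genes above 0. All 12 value columns were matched by their labels and 0 were left over; for Homo 4 and Homo 5 the column name has 1 letter more than the label and was assigned by its genotype and replicate number. No count model was applied.

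All fold changes are on the log2(FPKM + 1) scale and understate changes of low genes. Genes with a mean of at least 1 FPKM (14017) entered limma 3.58.1 under R 4.3.3 (lmFit on genotype alone, eBayes with trend and robust options, Benjamini-Hochberg adjustment over all of them). The procedure was tested on simulated data. Single genes were also tested by exact two-sided permutation of genotype (792 assignments, smallest p 0.0013), and within library sets (210 assignments, smallest p 0.0048). For the latter, no share over all genes was computed. Libraries were put in 2 sets by how many genes had a value above 0, at the widest gap between neighbors. Correlations used 100000 permutations and adjustment over 6 pairs. The genes, lists and tests were chosen with earlier results of these data known. Named genes are the 8 chosen GABA and glutamate genes, the other genes of GABA and glutamate handling, cell type markers beside them, and the 5 genes closest to *Slc32a1* and to *Slc17a6*. Some genes of these lists are not reported here and are left out of the counts and plots of the lists, though not out of the fit. Positions and coding sequences are from GENCODE M21 on GRCm38, in which 97.5% of the tested identifiers were found; the transcript with the longest coding sequence was used, and identity was computed over a global alignment. Alternatives covered scaling, pseudocount, filters, library set, array weights, plain variances, pan-neuronal scaling, a term for library set, a replicate block and each library left out. The replicate block was fitted without Homo 6 and Homo 7, which have no WT library of the same number. Plots were drawn with matplotlib 3.10.9.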

Additional observations from a re-analysis of the deposited data

Results flagged for a closer look

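Among 44 groups (22 genes in WT and in Homo), 7 held a library that stood apart from the others by Dixon's test at the 95% level, which chance gives in about 1 of 20 groups. For the chosen GABA and glutamate genes these were *Gad1* in Homo 4 (157 FPKM, above the other Homo libraries) and *Slc17a6* in Homo 1 (5.57 FPKM, below them). Among the other genes they were *Aldh5a1* in Homo 3 (6.66 FPKM, low), *Slc1a1* in Homo 3 (8.82 FPKM, low), *Slc1a2* in Homo 4 (270 FPKM, high), *Got2* in WT 3 (14.8 FPKM, low) and *Slc38a1* in WT 5 (43.9 FPKM, high). The genotype difference between the 2 library sets, taken as the set with more genes above 0 minus the other, was 1.16 for *Got2* on the log2 scale (unadjusted p = 0.0204) and did not pass adjustment over all genes (limma adjusted p = 0.876).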

How the results depend on the processing

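Under 24 alternatives, 0 of the chosen GABA and glutamate genes and 0 of the other genes of GABA and glutamate handling had an adjusted p under 0.05 in limma. The smallest adjusted p of the former was 0.732. At an unadjusted p under 0.05 the count was 1 in 10 alternatives and 0 in 14. Of 144 recomputed fold changes of the 6 genes, 133 kept their direction, including all of *Gad1* (0.20 to 0.52) and *Slc17a6* (-0.40 to -0.10). Within the set of 7 libraries, *Gad2* was at -0.069, *Slc32a1* at -0.0027 and *Slc6a11* at -0.29. *Slc6a11*, at 0.39 in the set of 5, was also at -0.027 after quantile normalization and -0.029 scaled to pan-neuronal markers. With the replicate block, which used replicates 1 to 5 alone and so left out Homo 6 and Homo 7, it was at -0.075. It was at -0.057 without Homo 6, and ranged from -0.11 to 0.092 with 1 library left out. *Abat* then ranged from -0.27 to 0.016, and *Gad2* from 0.078 to 0.26. The count over all genes was 1 in all 12 libraries, 6 in the set of 7, 19 in the set of 5, 2 with the replicate block, and 1 to 3 with 1 library left out (3 without WT 2, 2 without Homo 4). The log2 ratio of *Gad1* to *Gad2* differed between genotypes by 0.59 in the former set and by -0.22 in the latter, and by 0.091 to 0.30 with 1 library left out. Same-numbered libraries did not deviate together (correlations from -0.054 to 0.029), so the replicate number was not read as a pairing. With the block, none of the chosen genes or the other genes of GABA and glutamate handling passed adjustment in limma. The count of chosen genes at an unadjusted p under 0.05 in limma went from 1 to 0 with it. The exact permutation p of *Gad1* ranged from 0.0043 to 0.164, the highest when scaled to pan-neuronal markers (log2 fold change 0.31). The alternatives for the permutation tests and the correlations were chosen after seeing the data. With no filter, *Slc17a7* and *Slc17a8* entered the fit and were not called. The cause of these changes was not tested.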
